A study of Mus musculus with 12 samples.

Results

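Transcripts of mammary organoids kept for 7 days in 1.5 µM CHIR99021 were compared with those of the same cultures kept in the vehicle, DMSO. The members were the 3 libraries titled 1.5 µM CHIR99021 and the 3 titled DMSO, which are 6 of the 12 libraries of the study. CHIR99021 is an inhibitor of the kinase GSK3. Every organoid came from the mammary gland of virgin female FVB/N mice aged 8 to 11 weeks and was embedded in growth factor reduced Matrigel in minimal medium, so the DMSO group shared all of these conditions and lacked only the inhibitor. Each of the 3 cultures, from 3 animals, received DMSO and CHIR99021 at 1, 1.5 and 3 µM, and the 1.5 µM and DMSO libraries of a culture were therefore compared as a pair. Cultures are numbered 1, 2 and 3 below, and triplets of values are always in that order. The labels name no sort, so each library holds the RNA of all cells present.

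GSK3 marks β-catenin for destruction, and blocking the kinase lets β-catenin enter the nucleus and act with TCF/LEF factors, as a WNT ligand would. GSK3 also phosphorylates MYC, cyclin D1, SREBP and other proteins, so an inhibitor can reach beyond WNT targets. The mammary epithelium is a bilayer of inner luminal cells, which include hormone-sensing cells and milk-secreting progenitors, and outer basal cells, most of which contract in response to oxytocin. WNT feedback genes and squamous markers are left aside here, and the pathways and cell identities beyond them are described.

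The libraries held between 10129264 and 24485855 counts each. Mitochondrially encoded genes took between 1.8% and 3.1% of the counts in the 6 libraries. The tissue label was matched by the keratins of both layers, Krt8 and Krt18 of luminal cells and Krt5 and Krt14 of basal cells, and by Elf5, Kit and Sox10. Markers of fibroblasts, macrophages, endothelial cells, adipocytes and pericytes were present too, while none of the 7 lymphocyte markers, Cd3e among them, had enough counts to be tested.

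Of 15316 genes tested, 7147 passed an adjusted p of 0.05 between 1.5 µM and DMSO (46.7%, edgeR's quasi-likelihood test with Benjamini-Hochberg adjustment and a block for culture), and this is what "called", "rose" and "fell" mean below. Of these, 3420 rose (22.3%) and 3727 fell (24.3%). A single direction in all 3 cultures was seen for 7060 of them. Changes of over 2-fold were less even, with 1007 genes higher and 2014 lower (19.7% of genes tested in both directions together). For 6984 genes (45.6%) the 3 CPM values of one group did not overlap the 3 of the other. Levels are in CPM, counts scaled to library totals that were corrected by the TMM method. The median log2 fold change over all genes tested was −0.0043. Without the block for culture 4177 genes passed, and without culture 2 3231 did. The counts for gene lists are to be read against these shares. Among the genes named below, exons of Acss2, Atp6v1c2, Ccnd1, Cdkn1a, Csf1r, Ctgf, Cyp4x1, Dnajb9, E2f7, E2f8, Ephb1, Ereg, Fgf10, Fgfr1, Gata3, Gbp2, Igf2, Itga7, Krt5, Krt8, Ly6g6c, Notch1, Orc1, Prom1, Shmt2, Slurp1, Tfap2a and Tjp3, as of Rb1 and Ube2c, overlap a gene on the other strand, so their reads could be shared if strand was not used in counting.

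**Figure D1:**
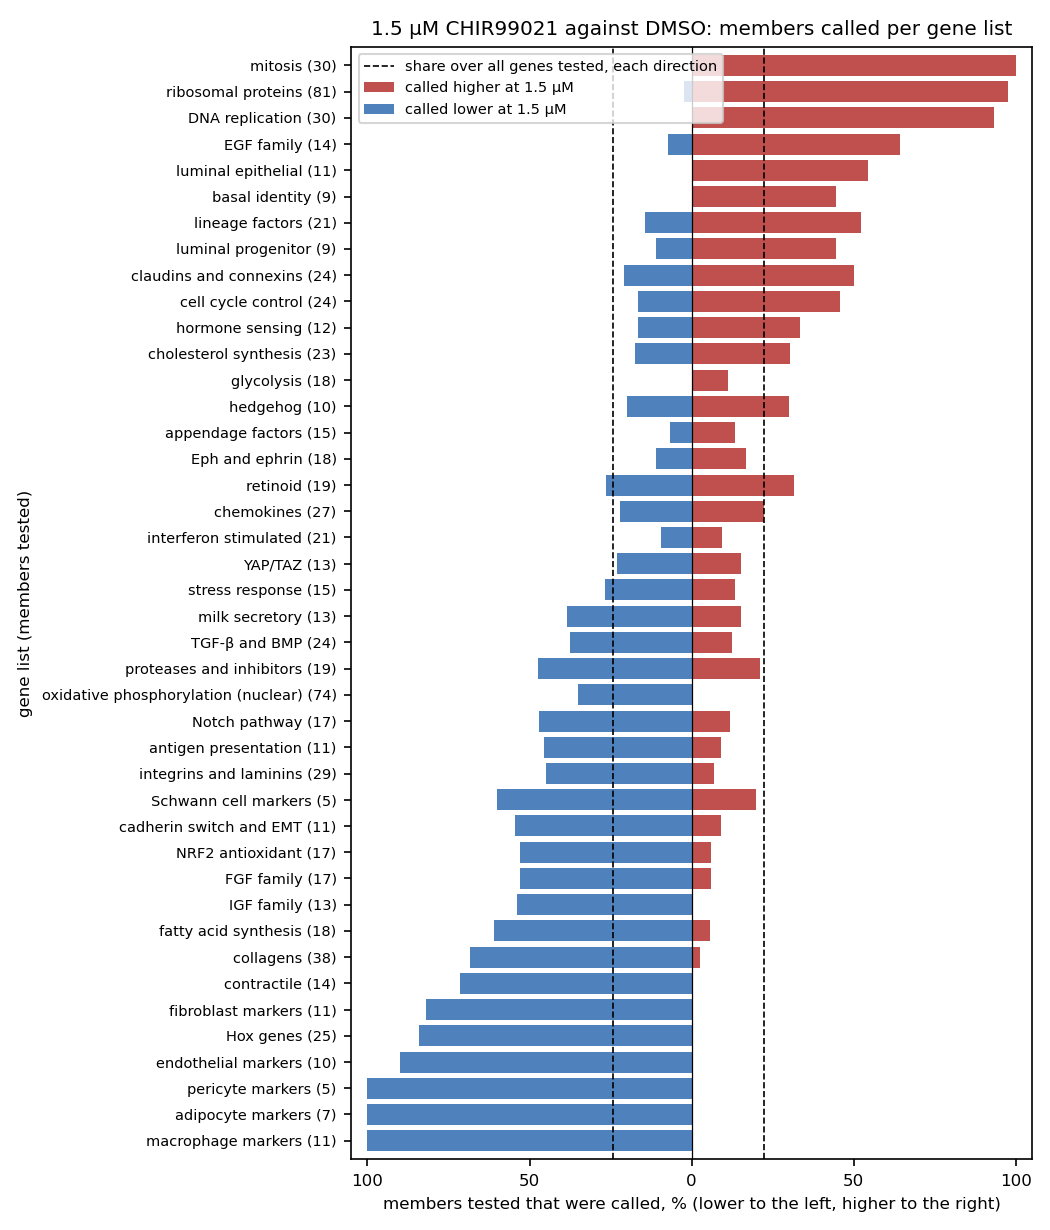
Percentage of the tested members of each gene list that was called at 1.5 µM against DMSO, higher to the right and lower to the left, with the number of members tested in parentheses. Dashed lines mark the shares over all genes tested, 22.3% higher and 24.3% lower, and the mitosis, ribosomal protein and DNA replication lists stand at the top while the Hox genes and the markers of 5 other cell types stand at the bottom.

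Genes of DNA replication and mitosis rose together. All 30 mitosis genes rose, with a median log2 fold change of 1.82, and 28 of 30 DNA replication genes rose and none fell, with a median of 1.20. Mki67, which encodes the proliferation marker Ki-67, stood at 59.5, 71.2 and 54.0 CPM in DMSO and 246, 245 and 231 CPM at 1.5 µM, so that every treated library was above every control (log2 fold change 1.99 ± 0.32 (SE), adjusted p = 0.00118). Cdk1, the kinase that drives entry into mitosis, stood at 16.9, 16.4 and 13.9 CPM in DMSO and 55.3, 47.1 and 44.4 CPM at 1.5 µM (log2 fold change 1.64 ± 0.25 (SE), adjusted p = 0.000993). Both genes were close to even among the 3 cultures in either condition. Bub1b, a spindle checkpoint kinase, had a log2 fold change of 2.18 ± 0.34, Kif11, a spindle motor, 2.13 ± 0.29, and Ube2c, the ubiquitin-conjugating enzyme of the anaphase-promoting complex, 2.11 ± 0.28 (SE, adjusted p between 0.000499 and 0.00104). The Ube2c gene overlaps exons of Tnnc2 on the other strand. The counts of called genes in the mitosis and DNA replication lists did not move by more than 1.5 times under any alternative tried.

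In the replication machinery, Mcm5, a subunit of the MCM2-7 helicase, stood at 26.0, 19.5 and 19.4 CPM in DMSO and 87.1, 78.5 and 68.6 CPM at 1.5 µM (log2 fold change 1.84 ± 0.25 (SE), adjusted p = 0.000501). The helicase subunit Mcm2 stood at 27.2, 21.4 and 19.2 CPM in DMSO and 73.2, 62.0 and 61.1 CPM at 1.5 µM (log2 fold change 1.54 ± 0.15 (SE), adjusted p = 0.000113), and the sliding clamp gene Pcna changed less, from 49.0, 41.0 and 45.3 CPM in DMSO to 89.2, 86.8 and 77.9 CPM (log2 fold change 0.90 ± 0.16 (SE), adjusted p = 0.00217). Orc1, of the origin recognition complex, and Mcm10, which activates the helicase, rose by 1.91 ± 0.22 and 1.80 ± 0.27 on the log2 scale (SE). The groups did not overlap for any of the 30 replication genes or the 30 mitosis genes.

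Regulators of the cycle moved in both directions, 11 of 24 up and 4 down (median 0.40), and 11 rose and 2 fell without the block. Myc, a growth-promoting transcription factor, stood at 40.7, 40.4 and 54.2 CPM in DMSO and 133, 109.7 and 162 CPM at 1.5 µM (log2 fold change 1.58 ± 0.15 (SE), adjusted p = 0.000120). Ccnd1, which encodes cyclin D1, stood at 197, 135 and 132 CPM in DMSO and 296, 277 and 372 CPM at 1.5 µM (log2 fold change 1.04 ± 0.18 (SE), adjusted p = 0.00171). E2f7 and E2f8, repressors that are themselves E2F targets, rose by 1.42 ± 0.16 and 2.09 ± 0.19 on the log2 scale (SE). On the other side, the retinoblastoma gene Rb1, the brake on E2F factors, went from 522, 471 and 628 CPM in DMSO to 205, 209.9 and 258 CPM, with a similar fall in each culture (log2 fold change −1.27 ± 0.07 (SE), adjusted p = 1.63e-05). Rb1 shares exon sequence with Lpar6 and Rcbtb2 on the other strand, and whether strand was used in counting is not given in the sources used here. Cdkn2c, an inhibitor of CDK4 and CDK6, stood at 46.0, 85.1 and 53.4 CPM in DMSO and 22.9, 24.5 and 15.6 CPM at 1.5 µM (log2 fold change −1.55 ± 0.18 (SE), adjusted p = 0.000265). Cdkn1a, the p21 inhibitor, was at 46.3, 116 and 91.9 CPM in DMSO and 75.3, 86.0 and 112 CPM at 1.5 µM, with overlapping ranges and adjusted p = 0.524.

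Because these genes moved together, their promoters were searched on both strands for 7 motifs, 2 of them known in cell cycle genes, the NF-Y box CCAAT and the E2F site TTTNNCGC. The others were those of RBPJ (GTGGGAA), TCF/LEF (CTTTGAT), AP-1 (TGANTCA), TEAD (CATTCC) and SREBP (TCACNCCAC). A match of one motif can overlap a match of another. RefSeq gave a 300-base promoter (250 bases before the start to 50 after) for 25 of the mitosis genes that rose and 23 of the replication genes. CCAAT was found in 20 of 25 mitosis promoters (80%) and 16 of 23 replication promoters (69.6%), against 37.9% of the 11013 tested genes that had a promoter and 37.4% of all 32851 promoters in the table. The E2F letters were found in 10 of 23 replication promoters (43.5%) and 1 of 25 mitosis promoters (4.0%), against 8.24% of the tested genes and 5.17% of all promoters. The same 7 motifs were searched in 5 other sets of called genes, described below. Only called genes with a RefSeq promoter could be searched. The share with CCAAT was 32.2% of the 59 ribosomal protein promoters and 42.9% of the 7 contractile ones. It was 62.5% of the 8 promoters found for the 11 fatty acid genes that fell. It was 60% of the 5 promoters found for the 8 Notch genes that fell. All 4 promoters found for the 7 cholesterol genes that rose held it. High shares were thus found outside the cell cycle lists too. The other 5 motifs were each in at most 3 of 25 mitosis and 2 of 23 replication promoters, and in between 1.14% (SREBP) and 12.4% (TEAD) of the tested genes. A match is a description of the letters only. The promoters of 3 mitosis genes and 2 replication genes are shown because they carry these motifs close to the start (GRCm38.p6, 150 bases from 130 before the start, 5′ to 3′ on the strand of the gene, motif matches in capitals).
Cdk1, chr10:69352893-69353042, minus strand: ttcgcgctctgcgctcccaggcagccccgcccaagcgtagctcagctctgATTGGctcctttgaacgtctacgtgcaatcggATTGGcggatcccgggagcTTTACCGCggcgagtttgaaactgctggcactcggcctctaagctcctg
Kif11, chr19:37376252-37376401, plus strand: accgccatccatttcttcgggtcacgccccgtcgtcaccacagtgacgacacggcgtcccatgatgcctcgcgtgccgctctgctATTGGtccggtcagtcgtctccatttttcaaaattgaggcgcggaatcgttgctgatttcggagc
Ube2c, chr2:164769799-164769948, plus strand: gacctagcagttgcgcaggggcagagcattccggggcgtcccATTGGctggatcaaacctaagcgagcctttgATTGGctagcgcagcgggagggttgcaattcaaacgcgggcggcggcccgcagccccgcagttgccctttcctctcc
Mcm10, chr2:5012772-5012921, minus strand: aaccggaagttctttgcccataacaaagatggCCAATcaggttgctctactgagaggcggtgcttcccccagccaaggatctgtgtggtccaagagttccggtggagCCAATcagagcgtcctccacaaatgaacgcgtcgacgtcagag
Orc1, chr4:108579324-108579473, plus strand: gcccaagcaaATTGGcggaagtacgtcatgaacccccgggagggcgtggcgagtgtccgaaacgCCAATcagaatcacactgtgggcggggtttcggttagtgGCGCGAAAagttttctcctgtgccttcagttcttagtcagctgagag
These promoters were picked for their matches and do not stand for their lists. The Cdk1 stretch holds 2 CCAAT boxes, both on the reverse strand, and 1 E2F match between them and the start. Cdk1 was the 1 of 25 mitosis promoters with an E2F match. Orc1 holds 2 CCAAT boxes, 1 in each orientation, and 1 E2F match, whereas Kif11, Ube2c and Mcm10 hold CCAAT boxes only in these 150 bases.

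Genes for cytosolic ribosomal proteins, the building blocks of the ribosome, rose almost without exception, 79 of 81 tested (median 0.91). Their summed level over the 82 genes in the table was 25282, 21481 and 27878 CPM in DMSO and 46977, 43778 and 53134 CPM at 1.5 µM. The range of one group lay wholly above that of the other. Rps12 stood at 333, 281 and 354 CPM in DMSO and 756, 682 and 754 CPM at 1.5 µM (log2 fold change 1.18 ± 0.15 (SE), adjusted p = 0.000329), Rplp0, of the ribosomal stalk, had a log2 fold change of 1.16 ± 0.15 and Rps24 1.14 ± 0.11 (SE). The pair that fell was made of the paralogs Rpl39l (8.62, 16.4 and 6.89 CPM in DMSO and 1.53, 1.96 and 1.16 CPM at 1.5 µM, log2 fold change −2.72 ± 0.35 (SE), adjusted p = 0.000382) and Rps4l (log2 fold change −0.72 ± 0.21 (SE), adjusted p = 0.0211). Ribosomal protein genes have many processed copies in the genome, so reads may be split between copies. The number that rose stayed between 77 and 79 in every alternative. Rpl39l was called in each of them, and Rps4l was not called in 7 of 16, those without the block (adjusted p = 0.161) and without culture 2 (adjusted p = 0.219) among them.

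**Figure D2:**
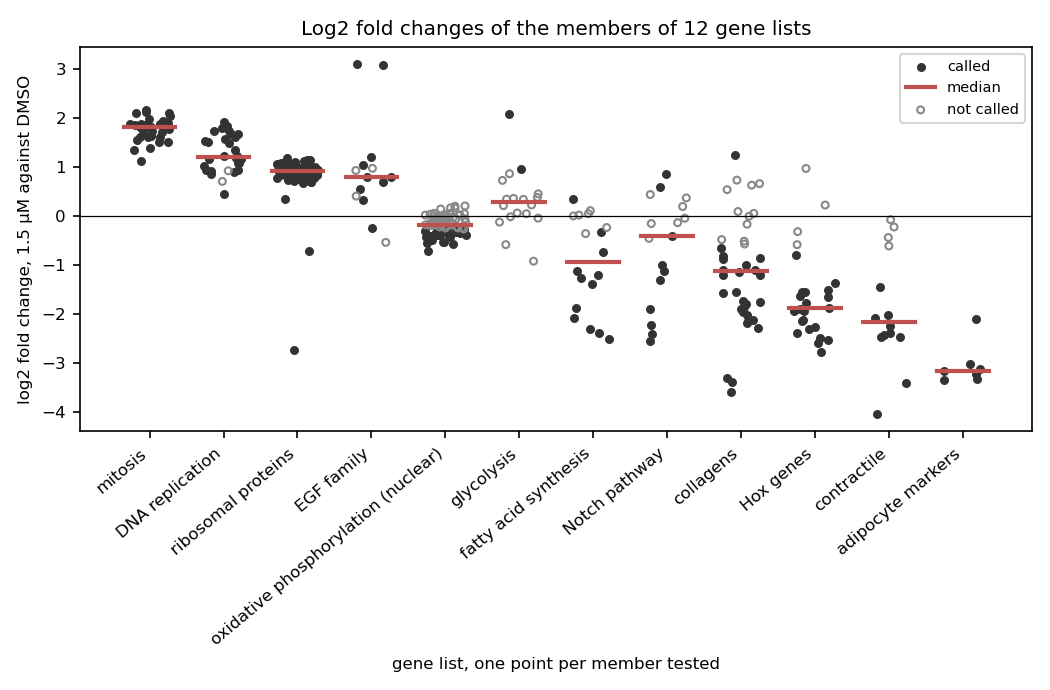
Log2 fold change (1.5 µM against DMSO) of each tested member of 12 gene lists, filled where called and open where not, with the list median as a bar. The ribosomal protein genes form a narrow band around 0.91 with the paralogs Rpl39l and Rps4l below it, and the members of the Notch, collagen and EGF family lists are spread widely.

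Lipid synthesis fell in its fatty acid branch and was mixed in its sterol branch. Of 18 fatty acid synthesis genes, 11 fell and 1 rose (median −0.93). Scd1, the desaturase that makes monounsaturated fatty acids, stood at 15416, 32144 and 12907 CPM in DMSO and 4807, 5329 and 1189.6 CPM at 1.5 µM (log2 fold change −2.51 ± 0.42 (SE), adjusted p = 0.00148). Fasn, the fatty acid synthase, stood at 1370.3, 4047 and 2001 CPM in DMSO and 711, 783 and 454 CPM at 1.5 µM (log2 fold change −1.87 ± 0.27 (SE), adjusted p = 0.000783). No treated library reached the lowest control for either gene, and the DMSO library of culture 2 was the highest for both. Acss2, which makes acetyl-CoA from acetate, and Lpin1, a phosphatidate phosphatase, had log2 fold changes of −2.38 ± 0.27 and −2.30 ± 0.23 (SE). Fads2, a desaturase of polyunsaturated fatty acids, was the gene that rose (log2 fold change 0.35 ± 0.10 (SE), adjusted p = 0.0215), a call that was lost under 7 of 16 alternatives. Several of these genes are also high in adipocytes, whose 7 markers had a summed level of 5692, 10065 and 3769.9 CPM in DMSO and 1181, 1432 and 164 CPM at 1.5 µM. The part of adipocytes in the fatty acid result was not tested.

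Among 23 genes of cholesterol synthesis and uptake, 7 rose and 4 fell (median 0.20), a share of 47.8% close to the 46.7% over all genes. These counts depended on the libraries used, with 3 rose and 1 fell without the block and 2 rose and 1 fell without culture 2. Leaving out single libraries gave between 3 and 6 higher and between 1 and 6 lower, and culture 2 had the highest DMSO values for Insig1 and Dhcr7. Insig1, the sterol sensor that holds SREBP in the endoplasmic reticulum, fell from 278, 788 and 363 CPM in DMSO to 116, 133 and 53.8 CPM (log2 fold change −2.26 ± 0.31 (SE), adjusted p = 0.000596). The groups did not overlap for Insig1, and its call held in every alternative.

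Most glycolysis genes were not called at this dose. Of 18 glycolysis genes 2 rose and none fell, a share below that over all genes. Eno1, encoding enolase, stood at 319.7, 311 and 291 CPM in DMSO and 468, 482 and 851 CPM at 1.5 µM (log2 fold change 0.96 ± 0.24 (SE), adjusted p = 0.0107), a call lost without culture 2 (adjusted p = 0.0639) and without the DMSO library of culture 3. The lactate exporter gene Slc16a3 stood at 3.60, 6.09 and 16.4 CPM in DMSO and 11.0, 14.4 and 117 CPM at 1.5 µM (log2 fold change 2.08 ± 0.54 (SE), adjusted p = 0.0122), and its level at 1.5 µM in culture 3 was far above that in cultures 1 and 2. Without the block for culture Slc16a3 was not called (adjusted p = 0.0930), and Slc16a3 was also lost without culture 1, without culture 2 and without either the DMSO or the 1.5 µM library of culture 3. The summed level of the glycolysis list was 6396, 6781 and 5485 CPM in DMSO and 5511, 5686 and 9435 CPM at 1.5 µM, higher with treatment in culture 3 only. Without culture 3, 3 rose and 4 fell. Ldha, lactate dehydrogenase A, stood at 967, 908 and 939 CPM in DMSO and 767, 785 and 1373 CPM at 1.5 µM (adjusted p = 0.895).

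Of 74 nuclear genes of oxidative phosphorylation, 26 fell and none rose, with a median of only −0.18. Mitochondrially encoded genes, which are not on this list, took 2.34%, 2.66% and 1.82% of the counts in DMSO. At 1.5 µM they took 2.95%, 3.09% and 2.44%, a higher share in each culture, and this difference was not tested. Sdhb, a subunit of succinate dehydrogenase, stood at 109, 143 and 92.3 CPM in DMSO and 81.5, 83.2 and 64.9 CPM at 1.5 µM (log2 fold change −0.57 ± 0.08 (SE), adjusted p = 0.000631), and Ndufs5, of complex I, fell by 0.72 on the log2 scale (adjusted p = 0.00141). The count fell to 5 without the block, to 13 without culture 1, to 4 without culture 2, and to 17 or 10 without the 1.5 µM library of culture 1 or 2. Scaling by library size alone gave 3 rose and 23 fell. Sdhb was not called without the block (adjusted p = 0.0614).

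Among NRF2 antioxidant genes, 9 of 17 fell and 1 rose (median −0.47). Hmox1, heme oxygenase, stood at 291, 368 and 283 CPM in DMSO and 142, 155 and 117 CPM at 1.5 µM (log2 fold change −1.18 ± 0.09 (SE), adjusted p = 4.42e-05). Gstm1, a glutathione transferase, stood at 272, 296 and 122 CPM in DMSO and 80.2, 86.6 and 39.0 CPM at 1.5 µM (log2 fold change −1.73 ± 0.21 (SE), adjusted p = 0.000311). Each treated library lay below every control for both genes, whereas Nqo1, a quinone reductase often used to read this pathway, was not called (log2 fold change −0.88 ± 0.34 (SE), adjusted p = 0.0597), though it passed in 4 of 16 alternatives. Without the block 0 rose and 2 fell, and without culture 2 0 rose and 5 fell. In the stress response list 2 of 15 rose and 4 fell, so that 40% were called, against 46.7% over all genes. Shmt2, a mitochondrial serine enzyme, rose from 66.7, 62.5 and 69.0 CPM in DMSO to 110.1, 107 and 140.5 CPM at 1.5 µM (log2 fold change 0.85 ± 0.14 (SE), adjusted p = 0.00148), and Dnajb9, a chaperone of the endoplasmic reticulum, fell from 49.9, 63.5 and 51.9 CPM to 27.0, 25.4 and 27.2 CPM (log2 fold change −1.05 ± 0.09 (SE), adjusted p = 8.19e-05). Atf4 was not called, at 245, 230.2 and 241 CPM in DMSO and 240.3, 237 and 248 CPM at 1.5 µM (adjusted p = 0.842). The stress list's smaller counts moved with the block (2 rose and 1 fell without it) and with culture 3 (2 rose and 7 fell without its DMSO library, 2 rose and 2 fell without its 1.5 µM library).

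Some basal identity genes rose while contractile genes fell. Of 9 basal identity genes 4 rose and none fell (median 0.53), so that 44.4% were called, against 46.7% over all genes. Itga6, Itgb4 and Snai2 of this list were not called. The contractile program fell, 10 of 14 with none higher (median −2.16). Krt14, a keratin of basal cells, stood at 1543, 795 and 934 CPM in DMSO and 2972, 2862 and 2566 CPM at 1.5 µM (log2 fold change 1.40 ± 0.26 (SE), adjusted p = 0.00231). Krt5, its partner keratin, stood at 1122, 604 and 689.7 CPM in DMSO and 1959, 1874 and 2467 CPM at 1.5 µM (log2 fold change 1.43 ± 0.28 (SE), adjusted p = 0.00297). Trp63, the transcription factor that maintains basal cells, stood at 104, 51.7 and 50.1 CPM in DMSO and 159.7, 132 and 115 CPM at 1.5 µM (log2 fold change 1.04 ± 0.17 (SE), adjusted p = 0.00125). The groups did not overlap for these 3 genes, and the calls held in every alternative. Krt5, Krt14 and Trp63 are expressed in squamous epithelia as well as in mammary basal cells, and the 2 sources cannot be told apart here.

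Contractile genes had the opposite course. Myh11, smooth muscle myosin, stood at 54.1, 73.3 and 112 CPM in DMSO and 5.47, 4.50 and 14.2 CPM at 1.5 µM (log2 fold change −3.41 ± 0.29 (SE), adjusted p = 6.82e-05). Acta2, smooth muscle actin, stood at 258, 292 and 428 CPM in DMSO and 36.2, 46.9 and 146 CPM at 1.5 µM (log2 fold change −2.25 ± 0.54 (SE), adjusted p = 0.00853), and Oxtr, the oxytocin receptor, at 176, 168 and 216 CPM in DMSO and 21.1, 25.4 and 132 CPM at 1.5 µM (log2 fold change −2.07 ± 0.52 (SE), adjusted p = 0.0107). In culture 3 both genes kept more of their control level than in cultures 1 and 2. Acta2 was not called without culture 1 or without culture 2 (largest adjusted p = 0.135), and Oxtr was not called without the block (adjusted p = 0.105) or without culture 1 or 2 or the 1.5 µM library of either. Cnn1, the actin-binding calponin, had the largest fall of the list (log2 fold change −4.03 ± 0.73 (SE), adjusted p = 0.00217), which was not called without the block (adjusted p = 0.0721). Pericytes and vascular smooth muscle also express these genes, and 5 of 5 pericyte markers fell, with a summed level of 248, 394 and 383 CPM in DMSO and 80.7, 93.8 and 151 CPM at 1.5 µM. Their part in the contractile result was not tested. In bulk libraries fewer cells of a type and less RNA per cell cannot be told apart, here and for every cell type below.

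**Figure D3:**
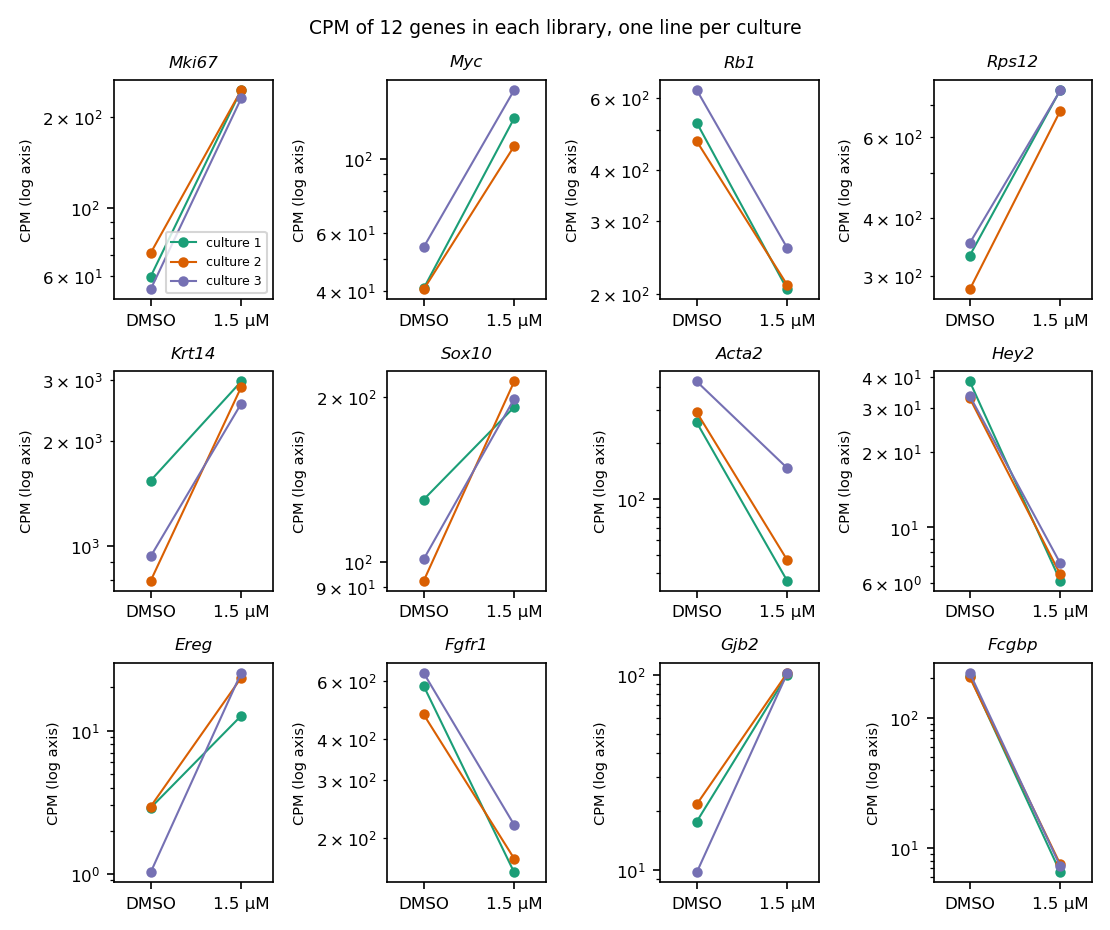
CPM (log axes) of 12 genes in the DMSO and 1.5 µM libraries, with a line for each of the 3 cultures. The lines of a gene run in one direction throughout, and those of Hey2, Gjb2 and Fcgbp end within a narrow range at 1.5 µM, whereas Acta2 in culture 3 stays above the other cultures.

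Luminal genes did not move as one. In the hormone-sensing list 4 of 12 rose and 2 fell, a share of 50% close to the 46.7% over all genes, and without culture 3 or its 1.5 µM library alone 4 rose and 4 fell. Esr1, the estrogen receptor, stood at 24.1, 12.1 and 18.5 CPM in DMSO and 16.9, 13.1 and 10.8 CPM at 1.5 µM (adjusted p = 0.154), and Prlr, the prolactin receptor, at 252, 154 and 163 CPM in DMSO and 145, 138 and 184 CPM at 1.5 µM (adjusted p = 0.197). Both ranges overlapped. Pgr, the progesterone receptor, stood at 4.27, 4.06 and 14.8 CPM in DMSO and 1.46, 0.768 and 5.39 CPM at 1.5 µM (log2 fold change −1.72 ± 0.28 (SE), adjusted p = 0.00128), but was not called without the block (adjusted p = 0.187). Areg, the EGF ligand downstream of estrogen, rose from 1.69, 1.32 and 2.37 CPM in DMSO to 3.18, 4.88 and 4.87 CPM at 1.5 µM (log2 fold change 1.21 ± 0.20 (SE), adjusted p = 0.00149), as did Prom1, a surface marker of hormone-sensing cells (log2 fold change 1.21 ± 0.17 (SE), adjusted p = 0.000563).

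Of 9 luminal progenitor genes 4 rose and 1 fell (median 0.75), so that 55.6% were called, against 46.7% over all genes. Ltf, lactoferrin, stood at 82.3, 27.8 and 20.1 CPM in DMSO and 219, 343 and 119.7 CPM at 1.5 µM (log2 fold change 2.45 ± 0.53 (SE), adjusted p = 0.00546), and was not called without the block (adjusted p = 0.0628) or without culture 2. Aldh1a3, a retinaldehyde dehydrogenase of progenitors, fell from 648, 322 and 166 CPM in DMSO to 92.6, 107 and 66.5 CPM at 1.5 µM (log2 fold change −2.0 ± 0.43 (SE), adjusted p = 0.00549; without culture 2 it was not called, adjusted p = 0.0729). The progenitor transcription factor gene Elf5 (log2 fold change 0.42 ± 0.16 (SE), adjusted p = 0.0659) and the receptor gene Kit (log2 fold change 0.63 ± 0.32 (SE), adjusted p = 0.137) did not pass, although Elf5 was higher in every treated library than in any control. Without the block 1 rose and 1 fell in the progenitor list, without culture 2 1 rose and 0 fell, and without culture 3 7 rose and 1 fell.

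Among milk genes 5 of 13 fell and 2 rose, so that 53.8% were called, against 46.7% over all genes. Btn1a1, which encodes butyrophilin of the milk fat globule, stood at 443, 356 and 368 CPM in DMSO and 49.6, 48.1 and 89.0 CPM at 1.5 µM (log2 fold change −2.70 ± 0.18 (SE), adjusted p = 2.72e-05), and held in every alternative. Csn1s1, a casein, went the other way from a control level that differed widely among cultures, 3.64, 5.28 and 128 CPM in DMSO and 55.0, 73.5 and 292 CPM at 1.5 µM (log2 fold change 2.43 ± 0.63 (SE), adjusted p = 0.0120), and was not called without the block (adjusted p = 0.375), without culture 1 or without culture 2. Of the general luminal list 6 of 11 rose and none fell (median 0.68), but without the block 1 rose and 0 fell and without culture 2 3 rose and 1 fell. Tjp3, of tight junctions, rose in every alternative (log2 fold change 1.06 ± 0.18 (SE), adjusted p = 0.00162), and the keratin genes Krt8 (log2 fold change −0.39 ± 0.18 (SE), adjusted p = 0.111) and Krt18 (log2 fold change −0.33 ± 0.13 (SE), adjusted p = 0.0639) did not pass. In the milk list 0 rose and 3 fell without the block and 0 rose and 3 fell without culture 2.

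Of 21 epithelial lineage transcription factors 11 rose and 3 fell (median 0.36). Sox10, a factor of basal and progenitor cells, stood at 130, 92.4 and 101 CPM in DMSO and 191, 213 and 198 CPM at 1.5 µM (log2 fold change 0.90 ± 0.11 (SE), adjusted p = 0.000274). Ehf, an ETS factor of luminal epithelium, stood at 539, 320 and 357 CPM in DMSO and 890.5, 881 and 634 CPM at 1.5 µM (log2 fold change 1.0 ± 0.14 (SE), adjusted p = 0.000573). Both calls held in every alternative. Bcl11b, a zinc finger factor of basal cells, rose by 1.38 ± 0.23 and Tfap2a, AP-2α, by 1.11 ± 0.19 on the log2 scale (SE), both lost without culture 2 (adjusted p = 0.0522 and adjusted p = 0.0562). The T-box factor gene Tbx2 fell from 4.49, 11.5 and 6.14 CPM to 1.27, 2.11 and 1.85 CPM (log2 fold change −2.01 ± 0.20 (SE), adjusted p = 0.000114). Gata3 (120.1, 69.9 and 72.5 CPM in DMSO and 92.5, 69.7 and 73.2 CPM at 1.5 µM, adjusted p = 0.277) and Sox9 (adjusted p = 0.430) had overlapping ranges and were not called. The list counted 7 rose and 1 fell without the block, 6 rose and 1 fell without culture 1 and 2 rose and 2 fell without culture 2. It counted 5 rose and 2 fell without the DMSO library of culture 2 and 6 rose and 1 fell without its 1.5 µM library.

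Genes of the other skin appendages were mostly still, 2 of 15 higher and 1 lower. Foxi3, a forkhead factor of hair and tooth placodes, rose from 1.20, 0.102 and 0.862 CPM in DMSO to 9.68, 5.99 and 4.40 CPM at 1.5 µM (log2 fold change 3.17 ± 0.47 (SE), adjusted p = 0.000821), whereas Edar, Dlx3 and Msx2 were not called. Foxi3 averaged 7.08 ± 3.41 CPM at 1 µM and 1.52 ± 0.802 CPM at 3 µM (SD, n = 3), and was lower at 3 than at 1.5 µM (log2 fold change −2.15 ± 0.44 (SE), adjusted p = 0.00404, edgeR; without culture 1 adjusted p = 0.0725).

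Hox genes, which give cells their position along the body axis, fell in 21 of 25 cases with none higher (median −1.88). Hoxa9 stood at 4.75, 19.6 and 7.97 CPM in DMSO and 0.955, 1.19 and 2.20 CPM at 1.5 µM (log2 fold change −2.77 ± 0.44 (SE), adjusted p = 0.00110), Hoxb6 had a log2 fold change of −2.59 ± 0.22 and Hoxc10 −2.53 ± 0.33 (SE). Exons of Hoxc10 overlap those of Hoxc5 on the same strand. Their control levels were lowest in culture 1, and the summed level of all 32 Hox genes was 71.1, 156 and 123 CPM in DMSO and 23.6, 34.3 and 54.0 CPM at 1.5 µM. Fibroblast markers fell as well. Their summed control level was also lowest in culture 1 but highest in culture 3, whereas that of the Hox genes was highest in culture 2. The part of stromal cells in the Hox result was not tested. Without the block 11 Hox genes fell, and without culture 2 12.

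Markers of the stroma fell in all 3 cultures. The 11 fibroblast markers had a summed level of 4114, 9805 and 24529 CPM in DMSO and 1609.7, 3362 and 14835 CPM at 1.5 µM, and 9 of 11 fell (median −1.21). Fap, a fibroblast surface protease, stood at 4.49, 9.34 and 12.5 CPM in DMSO and 1.53, 2.69 and 3.65 CPM at 1.5 µM (log2 fold change −1.72 ± 0.14 (SE), adjusted p = 6.23e-05; without the block adjusted p = 0.0260). Fap was the only 1 of the 11 markers for which the groups did not overlap, against 45.6% over all genes. The collagen gene Col1a1 stood at 449.6, 1682 and 4627 CPM in DMSO and 173, 622 and 2638 CPM at 1.5 µM (log2 fold change −1.21 ± 0.21 (SE), adjusted p = 0.00181), so that culture 3 with the inhibitor lay above cultures 1 and 2 without it. Col1a1 was not called without the block (adjusted p = 0.598) or without culture 2.

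The 11 macrophage markers all fell (median −1.74, summed level 305, 1573 and 3076 CPM in DMSO and 156, 376 and 736 CPM at 1.5 µM), and in no case did the CPM ranges of the groups separate, and culture 1 held few macrophage transcripts in either condition. Csf1r, the receptor that macrophages need to survive, stood at 9.33, 40.7 and 56.6 CPM in DMSO and 2.16, 9.07 and 14.8 CPM at 1.5 µM (log2 fold change −2.06 ± 0.10 (SE), adjusted p = 1.13e-05; without the block adjusted p = 0.127). Endothelial markers fell in 9 of 10 cases (median −2.26, summed level 325, 675 and 552 CPM in DMSO and 56.4, 84.3 and 270.2 CPM at 1.5 µM). Kdr, the VEGF receptor, stood at 42.4, 85.7 and 56.4 CPM in DMSO and 7.13, 10.1 and 18.8 CPM at 1.5 µM (log2 fold change −2.43 ± 0.25 (SE), adjusted p = 0.000157) and held in every alternative. Cdh5, the cadherin of endothelial junctions, stood at 94.7, 208 and 176 CPM in DMSO and 14.9, 21.6 and 84.0 CPM at 1.5 µM (log2 fold change −2.32 ± 0.35 (SE), adjusted p = 0.000869; without the block adjusted p = 0.0679). The remaining summed level at 1.5 µM was highest in culture 3 for each of the other cell types except adipocytes and Schwann cells.

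Adipocyte markers showed the steepest median of these lists, −3.15, with 7 of 7 lower. Adipoq, adiponectin, stood at 513, 890.5 and 403 CPM in DMSO and 104, 117 and 14.0 CPM at 1.5 µM (log2 fold change −3.34 ± 0.52 (SE), adjusted p = 0.00106), and here culture 3 was the lowest at 1.5 µM. All 5 pericyte markers fell (median −2.08). Rgs5, a pericyte regulator of G protein signalling, stood at 18.9, 51.0 and 104 CPM in DMSO and 2.61, 3.15 and 16.7 CPM at 1.5 µM (log2 fold change −3.16 ± 0.27 (SE), adjusted p = 7.63e-05; without the block adjusted p = 0.0505). Of 5 Schwann cell genes tested 3 fell and 1, Mbp, rose, the latter not called without culture 2. The summed level of the Schwann cell list changed little, from 56.7, 65.4 and 57.1 CPM in DMSO to 59.6, 62.9 and 54.3 CPM at 1.5 µM. Without the block the numbers that fell were 1 of 11 for fibroblasts, 1 of 11 for macrophages, 4 of 10 for endothelium, 3 of 7 for adipocytes, 1 of 5 for pericytes and 1 of 5 for Schwann cells. Without culture 2, 4 fibroblast markers fell.

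**Figure D4:**
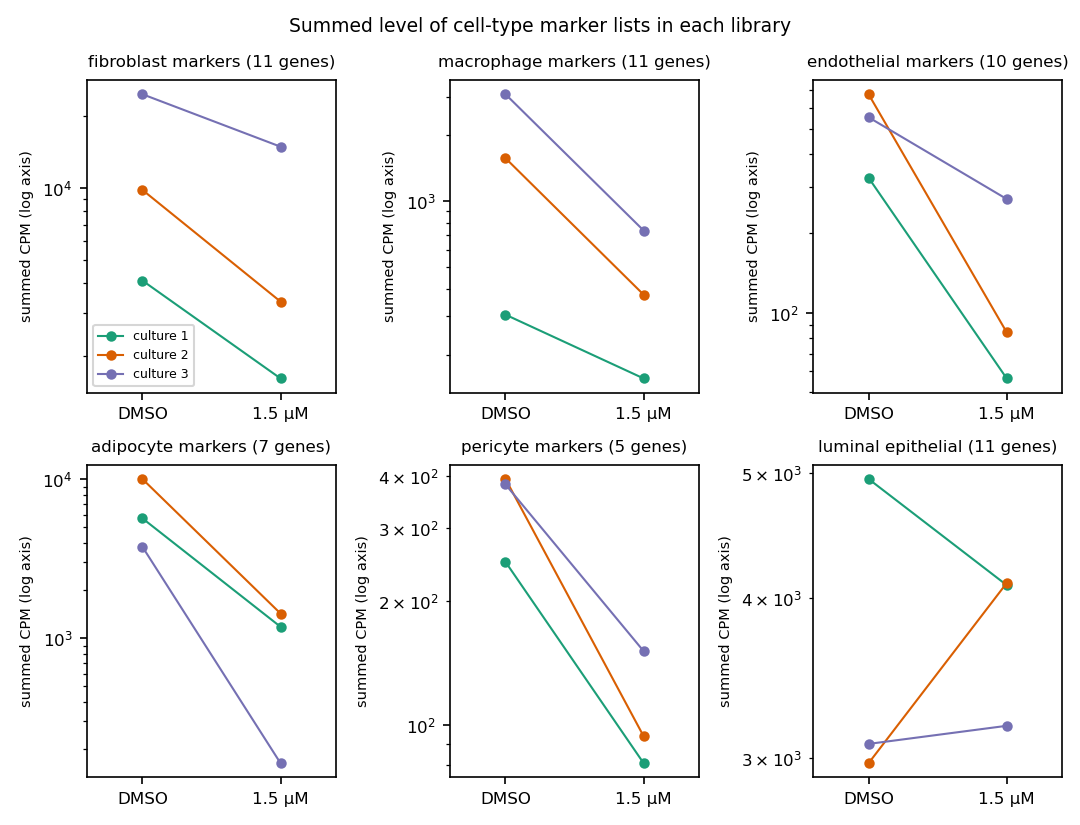
Summed CPM (log axes) of the markers of 5 other cell types and of the general luminal list in each DMSO and 1.5 µM library, with a line for each culture. The 5 other cell types fall in every culture from starting levels that differ among cultures, and the luminal sum falls in culture 1 and rises in cultures 2 and 3.

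Genes of the extracellular matrix fell as well. Of 38 collagen genes 26 fell and 1 rose (median −1.13). Col28a1 stood at 8.66, 10.9 and 10.7 CPM in DMSO and 1.21, 0.961 and 0.927 CPM at 1.5 µM (log2 fold change −3.29 ± 0.33 (SE), adjusted p = 0.000117), even among cultures and held in every alternative. The summed level of the 44 collagen genes was 8396, 19313 and 29989 CPM in DMSO and 3349, 6579 and 18213 CPM at 1.5 µM. Col1a1, Col1a2 and Col3a1 belong both to this list and to the fibroblast markers. The sums therefore share members and are not separate measures. The part of fibroblasts was not tested. Without the block 0 rose and 7 fell, without culture 1 1 rose and 17 fell, and without culture 2 0 rose and 10 fell. In the cadherin and mesenchymal list 6 of 11 fell and 1 rose. The median log2 ratio of the list within cultures was −1.78, −1.69 and −0.0447, so that culture 3 had little fall. The groups did not overlap for 2 of the 11, against 45.6% over all genes. Cdh2, N-cadherin, stood at 19.4, 36.8 and 30.6 CPM in DMSO and 4.14, 8.45 and 8.05 CPM at 1.5 µM (log2 fold change −2.09 ± 0.20 (SE), adjusted p = 0.000110). Cdh1, E-cadherin, was the gene that rose, at 624, 397 and 366 CPM in DMSO and 847, 804 and 567 CPM at 1.5 µM (log2 fold change 0.69 ± 0.12 (SE), adjusted p = 0.00169; without the block adjusted p = 0.0567), and Snai2, a transcription factor of basal and mesenchymal cells, was not called (adjusted p = 0.931). Without the block 0 rose and 2 fell in this list, and without culture 2 1 rose and 3 fell.

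Among proteases and their inhibitors 4 of 19 rose and 9 fell. Mmp9, a gelatinase, stood at 1.07, 1.22 and 6.36 CPM in DMSO and 26.6, 31.5 and 90.0 CPM at 1.5 µM (log2 fold change 4.18 ± 0.32 (SE), adjusted p = 4.90e-05). Mmp10, stromelysin-2, stood at 0.267, 0.508 and 0.215 CPM in DMSO and 2.86, 8.18 and 11.0 CPM at 1.5 µM (log2 fold change 4.69 ± 0.84 (SE), adjusted p = 0.00216). Both were higher in every treated library, starting from low control levels. The fibroblast protease gene Mmp2 stood at 147, 494 and 969 CPM in DMSO and 42.8, 212 and 707 CPM at 1.5 µM (log2 fold change −1.20 ± 0.32 (SE), adjusted p = 0.0133), and was not called without the block (adjusted p = 0.698) or in 4 other alternatives. In this list 3 rose and 2 fell without the block, 3 rose and 5 fell without culture 1 and 3 rose and 3 fell without culture 2.

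Of 29 integrin, laminin and basement membrane genes 13 fell and 2 rose (median −0.42), so that 51.7% were called, against 46.7% over all genes. The median log2 ratio of this list within cultures was −0.638, −0.578 and −0.0353. Itga7, the laminin receptor of muscle and basal cells, stood at 36.2, 52.9 and 39.9 CPM in DMSO and 10.4, 13.0 and 10.1 CPM at 1.5 µM (log2 fold change −1.93 ± 0.26 (SE), adjusted p = 0.000524). Itgb6, an epithelial integrin subunit, stood at 8.49, 4.77 and 8.72 CPM in DMSO and 19.8, 19.3 and 15.8 CPM at 1.5 µM (log2 fold change 1.32 ± 0.21 (SE), adjusted p = 0.00105). Each had separate ranges and held in every alternative, while Itga6, the hemidesmosome subunit, was not called, at 589, 515 and 494 CPM in DMSO and 609, 588 and 608 CPM at 1.5 µM (adjusted p = 0.187). Without the block 2 rose and 5 fell, without culture 1 3 rose and 7 fell, without culture 2 1 rose and 4 fell, without culture 3 6 rose and 18 fell, and without the DMSO library of culture 1 6 rose and 10 fell.

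Connexins, the subunits of gap junctions, and claudins, of tight junctions, rose in 12 of 24 cases and fell in 5 (median 0.62). Gjb2, connexin 26, stood at 17.7, 21.7 and 9.75 CPM in DMSO and 100.1, 102 and 102 CPM at 1.5 µM (log2 fold change 2.74 ± 0.26 (SE), adjusted p = 0.000103). The treated values of Gjb2 were nearly equal in the 3 cultures. Cldn5, the claudin of endothelium, fell from 14.9, 26.4 and 26.3 CPM to 2.74, 3.07 and 11.6 CPM (log2 fold change −2.19 ± 0.34 (SE), adjusted p = 0.00105). Cldn5 is itself one of the endothelial markers above. The arterial connexin gene Gja4 fell as well (log2 fold change −2.21 ± 0.46 (SE), adjusted p = 0.00424). Gja4 was not called without culture 2 or without the block (adjusted p = 0.112). Without the block 7 rose and 3 fell, and without culture 2 6 rose and 2 fell.

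In the Notch pathway, in which ligands on one cell bind receptors on the next and trigger their cleavage, 8 of 17 genes fell and 2 rose (median −0.41). Hey2, a repressor induced by Notch, stood at 38.4, 32.9 and 33.6 CPM in DMSO and 6.11, 6.49 and 7.18 CPM at 1.5 µM, with little spread among cultures (log2 fold change −2.41 ± 0.12 (SE), adjusted p = 1.13e-05). Its relative Hey1 stood at 169, 139 and 67.1 CPM in DMSO and 41.1, 54.2 and 48.7 CPM at 1.5 µM (log2 fold change −1.30 ± 0.39 (SE), adjusted p = 0.0234), a call lost in 7 alternatives, those without a library of culture 1 or 2 among them. Mfng, a glycosyltransferase that modifies Notch receptors, stood at 7.24, 12.5 and 7.86 CPM in DMSO and 1.34, 1.19 and 2.32 CPM at 1.5 µM (log2 fold change −2.55 ± 0.40 (SE), adjusted p = 0.00102). Notch1 itself was not called, at 376, 289 and 298 CPM in DMSO and 357, 326 and 252 CPM at 1.5 µM (adjusted p = 0.763), and the ligand gene Jag1 rose slightly (log2 fold change 0.60 ± 0.21 (SE), adjusted p = 0.0458), a call lost in 10 of 16 alternatives. Notch4, a receptor of endothelium, fell (log2 fold change −2.21 ± 0.33 (SE), adjusted p = 0.000829; without the block adjusted p = 0.0583), beside the fall of endothelial markers. Of the list 0 rose and 5 fell without the block, 1 rose and 5 fell without culture 1, 0 rose and 5 fell without culture 2 and 4 rose and 9 fell without culture 3.

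EGF family genes rose in 9 of 14 cases, with 1 lower (median 0.80). Ereg, epiregulin, stood at 2.89, 2.94 and 1.02 CPM in DMSO and 12.7, 23.3 and 25.2 CPM at 1.5 µM (log2 fold change 3.10 ± 0.44 (SE), adjusted p = 0.000716). Epgn, epigen, stood at 3.69, 0.812 and 0.969 CPM in DMSO and 21.6, 20.7 and 7.53 CPM at 1.5 µM (log2 fold change 3.09 ± 0.29 (SE), adjusted p = 0.000102). With Areg above, these 3 ligands of the EGF receptor were higher in every treated library than in any control. The receptor gene Egfr was slightly lower (log2 fold change −0.24 ± 0.08 (SE), adjusted p = 0.0371), a call lost in 12 of 16 alternatives. The count of 9 higher went to 5 without the block, to 4 without either library of culture 2 and to 5 without the DMSO library of culture 3.

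In the FGF family 9 of 17 genes fell and 1 rose (median −0.76). The receptor gene Fgfr1 stood at 579, 474 and 634 CPM in DMSO and 158, 174 and 219.7 CPM at 1.5 µM (log2 fold change −1.63 ± 0.23 (SE), adjusted p = 0.000694), and Spry4, a feedback inhibitor of FGF signalling, at 30.4, 82.7 and 47.7 CPM in DMSO and 9.04, 14.7 and 12.5 CPM at 1.5 µM (log2 fold change −2.08 ± 0.31 (SE), adjusted p = 0.000883). Fgfbp1, a carrier that releases FGFs from matrix, was the gene that rose, from 4.04, 3.45 and 1.72 CPM to 24.7, 26.6 and 27.5 CPM (log2 fold change 3.15 ± 0.22 (SE), adjusted p = 3.64e-05). These 3 calls held in every alternative. Fgf10, a stromal ligand, stood at 3.11, 66.9 and 45.1 CPM in DMSO and 0.0637, 1.50 and 9.50 CPM at 1.5 µM (log2 fold change −3.88 ± 0.65 (SE), adjusted p = 0.00155; without the block adjusted p = 0.144), beside the fall in fibroblast and adipocyte markers, whose part was not tested. The epithelial receptor gene Fgfr2 fell (log2 fold change −0.63 ± 0.20 (SE), adjusted p = 0.0288), but this was lost in 8 alternatives. Without culture 2, 1 rose and 4 fell in the family.

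Of the TGF-β and BMP genes 3 of 24 rose and 9 fell, a share of 50% close to the 46.7% over all genes. Nog, noggin, an extracellular BMP antagonist, stood at 5.55, 11.0 and 6.62 CPM in DMSO and 1.02, 1.27 and 0.753 CPM at 1.5 µM (log2 fold change −2.88 ± 0.49 (SE), adjusted p = 0.00171). The ligand gene Bmp7 rose from 11.4, 6.60 and 10.3 CPM in DMSO to 20.6, 17.4 and 25.4 CPM at 1.5 µM (log2 fold change 1.15 ± 0.15 (SE), adjusted p = 0.000414). Both held in every alternative. Id3, a BMP target gene, fell in each culture from very unequal controls, 189, 118 and 13.5 CPM in DMSO and 29.2, 35.2 and 4.46 CPM at 1.5 µM (log2 fold change −2.07 ± 0.26 (SE), adjusted p = 0.000413; without the block adjusted p = 0.146). The list held 1 rose and 3 fell without the block, 1 rose and 4 fell without culture 2, 1 rose and 10 fell without the DMSO library of culture 3 and 1 rose and 8 fell without its 1.5 µM library.

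IGF genes fell in 7 of 13 cases with none higher (median −0.93). Igfbp5, a binding protein of basal cells, stood at 18619, 14540 and 19992 CPM in DMSO and 9142, 9654 and 10940 CPM at 1.5 µM (log2 fold change −0.82 ± 0.18 (SE), adjusted p = 0.00558; without culture 1 adjusted p = 0.115). Igfbp4, another binding protein, stood at 202, 333 and 447 CPM in DMSO and 33.7, 59.7 and 128 CPM at 1.5 µM (log2 fold change −2.28 ± 0.14 (SE), adjusted p = 2.05e-05). The receptor gene Igf1r was not called (log2 fold change 0.05 ± 0.10 (SE), adjusted p = 0.739), and Igf2, a ligand made by stroma, fell (log2 fold change −3.14 ± 0.64 (SE), adjusted p = 0.00398; without the block adjusted p = 0.194) beside the fibroblast markers. Without culture 1, 4 of the IGF genes fell.

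Retinoid genes split, 6 of 19 higher and 5 lower, so that 57.9% were called, against 46.7% over all genes. Crabp2, a cellular carrier of retinoic acid, rose from 74.1, 51.2 and 53.9 CPM in DMSO to 104, 106 and 107 CPM at 1.5 µM (log2 fold change 0.83 ± 0.17 (SE), adjusted p = 0.00425; without culture 2 adjusted p = 0.0965). The receptor gene Rara fell, at 58.2, 75.7 and 83.6 CPM in DMSO and 27.1, 31.7 and 49.6 CPM at 1.5 µM (log2 fold change −1.04 ± 0.15 (SE), adjusted p = 0.000691), and Aldh1a3, described above, makes retinoic acid. Cyp26a1, which degrades it, stood at 28.1, 16.1 and 7.76 CPM in DMSO and 2.86, 4.65 and 8.29 CPM at 1.5 µM and was not called (adjusted p = 0.0549), though it passed in 6 alternatives. The list held 3 rose and 4 fell without the block, 4 rose and 2 fell without culture 2 and 4 rose and 3 fell without either single library of culture 2.

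Of Hedgehog genes 50% were called, close to the 46.7% over all genes, and of YAP/TAZ and Eph receptor genes smaller shares were. Of 10 Hedgehog genes 3 rose and 2 fell. Cdon, a co-receptor, stood at 73.4, 73.7 and 89.3 CPM in DMSO and 34.2, 41.6 and 39.3 CPM at 1.5 µM (log2 fold change −1.03 ± 0.15 (SE), adjusted p = 0.000666), and the target gene Ptch1 was not called (log2 fold change 0.30 ± 0.15 (SE), adjusted p = 0.137). The genes that rose did not hold, with 0 rose and 1 fell without the block, none higher without any library of culture 1 or 2, and 1 higher without either library of culture 3. Of 13 YAP/TAZ genes 2 rose and 3 fell. The target genes Cyr61 (39.4, 98.3 and 56.5 CPM in DMSO and 55.4, 116 and 73.3 CPM at 1.5 µM, adjusted p = 0.285) and Ctgf (adjusted p = 0.517) were not called, and the kinase gene Lats2 fell (log2 fold change −0.98 ± 0.18 (SE), adjusted p = 0.00268; without culture 2 adjusted p = 0.0711). Without culture 2 no YAP/TAZ gene was called. Of 18 Eph and ephrin genes 3 rose and 2 fell. The receptor gene Ephb1 fell from 14.8, 18.5 and 17.6 CPM to 3.95, 3.04 and 4.75 CPM (log2 fold change −2.13 ± 0.24 (SE), adjusted p = 0.000202), and Epha4 rose from 40.9, 43.5 and 46.6 CPM to 67.7, 79.4 and 74.5 CPM (log2 fold change 0.76 ± 0.11 (SE), adjusted p = 0.000770).

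Immune genes changed in single members more than as groups. Among chemokines 6 of 27 rose and 6 fell, a share of 44.4% close to the 46.7% over all genes. Ccl20, an epithelial attractant of CCR6-bearing cells, stood at 0.311, 0.102 and 0.108 CPM in DMSO and 12.2, 13.3 and 4.75 CPM at 1.5 µM (log2 fold change 5.67 ± 0.54 (SE), adjusted p = 0.000109), from 7, 1 and 2 counts in the controls. Cxcl14, an epithelial chemokine, stood at 65.9, 49.6 and 39.0 CPM in DMSO and 9.10, 16.2 and 18.0 CPM at 1.5 µM (log2 fold change −1.81 ± 0.30 (SE), adjusted p = 0.00153). Cxcl12, made by fibroblasts, fell (log2 fold change −2.04 ± 0.36 (SE), adjusted p = 0.00191; without the block adjusted p = 0.422) beside the fibroblast markers, whose part was not tested. The chemokine list held 3 rose and 3 fell without the block, 3 rose and 5 fell without culture 2 and 3 rose and 7 fell without the DMSO library of culture 2.

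Of 21 interferon-stimulated genes 2 rose and 2 fell, fewer than over all genes, and without culture 1 0 rose and 4 fell and without culture 3 5 rose and 2 fell. Gbp2, a guanylate-binding protein, stood at 49.9, 83.0 and 59.5 CPM in DMSO and 26.0, 28.3 and 14.9 CPM at 1.5 µM (log2 fold change −1.47 ± 0.22 (SE), adjusted p = 0.000922), and Isg15 was not called (adjusted p = 0.700). In antigen presentation 5 of 11 fell and 1 rose, so that 54.5% were called, against 46.7% over all genes. H2-D1, a class I heavy chain, stood at 697, 896 and 762 CPM in DMSO and 591, 567 and 475 CPM at 1.5 µM (log2 fold change −0.53 ± 0.10 (SE), adjusted p = 0.00266; without culture 2 adjusted p = 0.0744), and H2-K1, a close paralog whose reads may be shared with it, was not called (adjusted p = 0.539). Without the block 1 rose and 3 fell, without culture 1 0 rose and 2 fell, and without culture 2 none was called. It counted 3 lower without the 1.5 µM library of culture 2 or without either library of culture 3.

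Over all genes outside the WNT feedback and squamous lists, several of the steepest increases started from no reads. Defb6, a β-defensin, Rbp2, a retinol carrier, Alox12b, a lipoxygenase of the skin barrier, and Slurp1, a secreted Ly6 protein, had 0 counts in all 3 controls. Their levels at 1.5 µM were 9.29, 11.2 and 9.56 CPM for Defb6, 11.3, 11.3 and 6.26 CPM for Rbp2, 10.7, 10.9 and 1.68 CPM for Alox12b and 6.49, 7.26 and 1.22 CPM for Slurp1. Against the level that 3 counts per control library would give, Defb6 was at least 50.1-fold higher and Rbp2 at least 48.1-fold higher. Pla2g2f, a secreted phospholipase, stood at 0.178, 0 and 0 CPM in DMSO and 62.2, 63.9 and 24.4 CPM at 1.5 µM, Csta1, a cystatin, at 0.267, 0 and 0.0539 CPM in DMSO and 99.2, 106 and 22.5 CPM at 1.5 µM, and Calm4, a calmodulin-like protein of skin, at 3.02, 0 and 0.108 CPM in DMSO and 644, 657 and 117 CPM at 1.5 µM. Defb6 was even among the cultures, while Alox12b, Slurp1, Csta1 and Calm4 were lowest in culture 3. Nccrp1, Il1f8, a cytokine of the IL-1 family, and Serpina12, also among the 10 steepest, had a similar course, with at most 1 count in any control library. Several of these genes are known from cornified epithelium although they are not on the squamous list.

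The 10 steepest decreases were of another kind. Fcgbp, an IgG Fc-binding protein of mucus, stood at 208, 204 and 220.1 CPM in DMSO and 6.49, 7.49 and 7.24 CPM at 1.5 µM (log2 fold change −4.89 ± 0.21 (SE), adjusted p = 1.05e-05), and Hepacam2, an adhesion molecule, at 23.8, 21.3 and 20.4 CPM in DMSO and 0.955, 0.999 and 1.80 CPM at 1.5 µM (log2 fold change −4.15 ± 0.29 (SE), adjusted p = 2.97e-05). The fall in both was alike in the 3 cultures. Cyp4x1, a cytochrome P450, had a log2 fold change of −7.25 ± 0.45 (SE), with 0.0637, 0.0768 and 0.0579 CPM, which is 1 or 2 counts, left at 1.5 µM. Pkib, an inhibitor of protein kinase A, stood at 106, 61.7 and 15.7 CPM in DMSO and 2.74, 2.77 and 0.637 CPM at 1.5 µM (log2 fold change −4.77 ± 0.23 (SE), adjusted p = 1.13e-05). Retn, resistin, Cfd, adipsin, and Ces1d, a carboxylesterase, are made by adipocytes and fell by 4.63, 4.12 and 4.95 on the log2 scale, beside the adipocyte markers above. Chodl, Lrrc36 and Cnn1 completed the set. The lowest p-values belonged to Ly6g6c, a Ly6 family gene, which stood at 0.844, 0.508 and 0.700 CPM in DMSO and 23.9, 30.0 and 24.6 CPM at 1.5 µM (log2 fold change 5.17 ± 0.17 (SE), adjusted p = 4.47e-06), and Atp6v1c2, a proton pump subunit, at 21.2, 15.3 and 16.9 CPM in DMSO and 179, 175 and 133 CPM at 1.5 µM (log2 fold change 3.18 ± 0.13 (SE), adjusted p = 1.05e-05). Gpr146, an orphan receptor gene, fell among them (log2 fold change −1.93 ± 0.09 (SE), adjusted p = 1.13e-05).

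The same cultures allowed 1.5 µM to be placed between the neighbouring doses, in comparisons that share the 1.5 µM libraries with the one above. Against 1 µM, 3351 genes passed (21.9%), 1737 higher (11.3%) and 1614 lower (10.5%), and from 1.5 to 3 µM 7149 passed (46.7%), 3785 higher (24.7%) and 3364 lower (22%, edgeR). In the cell cycle, 30 of 30 mitosis genes and 27 of 30 replication genes were higher at 1.5 than at 1 µM. These counts were 26 and 24 without the block, and without a single library they lay between 23 and 30 and between 21 and 25. With only a pair of cultures fitted they were 0 and 5 without culture 1, 0 and 3 without culture 2, and 30 and 29 without culture 3. The mean of Mki67 was 61.6 ± 8.76 CPM with vehicle and 72.8 ± 13.1 CPM with 1 µM, against 241 ± 8.64 CPM with 1.5 µM and 323 ± 166 CPM with 3 µM (SD over 3 cultures). The step from 1.5 to 3 µM was not called for Mki67 (log2 fold change 0.34 ± 0.31 (SE), adjusted p = 0.387), and that from 1 to 1.5 µM was (log2 fold change 1.73 ± 0.31 (SE), adjusted p = 0.00670; without culture 1 adjusted p = 0.0889 and without culture 2 adjusted p = 0.108). Without culture 3 or its 3 µM library the later step was called for Mki67 too (adjusted p = 0.00209 and adjusted p = 0.00125). Of ribosomal protein genes, 68 of 81 were higher at 1.5 than at 1 µM and 79 of 81 at 3 than at 1.5 µM. The first count was 6 without the block, between 4 and 41 without a single library and 0 without culture 1 or culture 2, whereas the second stayed at 66 or more in every alternative.

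Several other lists had more calls from 1.5 to 3 µM than from 1 to 1.5 µM. Of 74 oxidative phosphorylation genes 58 were higher at 3 than at 1.5 µM, against 0 higher and 1 lower from 1 to 1.5 µM. The count of 58 was 22 without the block, 18 with library size alone, 35 with only these groups fitted, 20 without culture 1, 23 without culture 2 and 38 without the 1.5 µM library of culture 2. Of 18 glycolysis genes 14 were higher at 3 µM, but 7 without culture 1 and 2 without culture 2. Ldha, for which the cultures differed in direction at 1.5 µM, was higher at 3 than at 1.5 µM (log2 fold change 1.45 ± 0.28 (SE), adjusted p = 0.00304), though not without culture 1 (adjusted p = 0.0609) or culture 2 (adjusted p = 0.0787). Basal identity genes went on, 7 of 9 higher at 3 µM, and Krt14 averaged 15636 ± 6094 CPM there against 2799.8 ± 209.8 CPM at 1.5 µM (SD, n = 3; log2 fold change 2.43 ± 0.26 (SE), adjusted p = 0.000214). The fatty acid genes had 3 of 18 lower at 1.5 than at 1 µM (between 0 and 8 over the alternatives, 0 without culture 2) and 4 lower at 3 than at 1.5 µM (between 4 and 7, 7 without the 3 µM library of culture 3). Rb1, at 469 ± 63.3 CPM at 1 µM and 61.7 ± 3.75 CPM at 3 µM, was lower at each step (log2 fold change −1.06 ± 0.07 (SE), adjusted p = 0.000338, and log2 fold change −1.86 ± 0.07 (SE), adjusted p = 6.54e-06). Elf5, which did not pass against DMSO, was lower at 3 than at 1.5 µM (log2 fold change −0.57 ± 0.17 (SE), adjusted p = 0.0202), a call lost without the block (adjusted p = 0.0966), without culture 1 or 2, without the 1.5 µM library of culture 2 or 3 and with only these groups fitted. Interferon-stimulated genes had 11 of 21 lower at 3 µM and none higher, with 7 lower without culture 1 or its 1.5 µM library, 3 without culture 2 and 6 or 7 without the 3 µM library of culture 2 or 3.

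**Figure D5:**
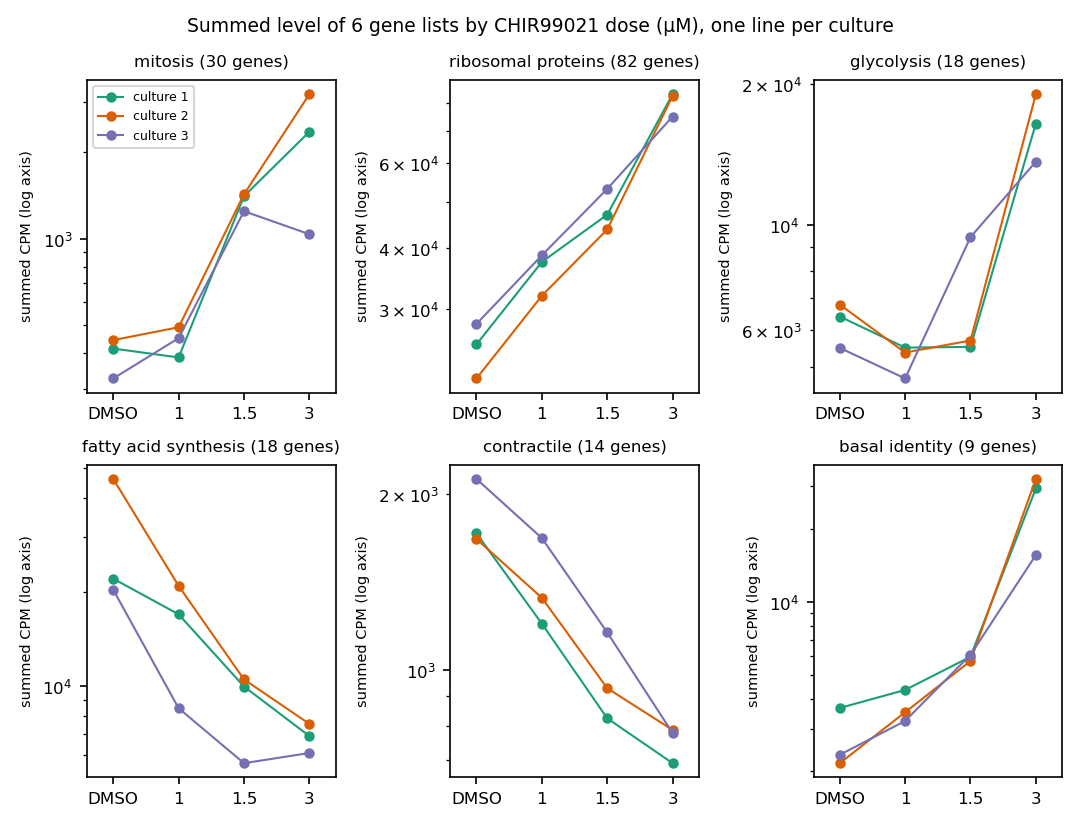
Summed CPM (log axes) of 6 gene lists in all 12 libraries by CHIR99021 dose, with a line for each culture. The mitosis sum lies between 386 and 492 at 1 µM and between 1247 and 1428 at 1.5 µM, ribosomal protein genes rise at each step, and the glycolysis sum at 1.5 µM is higher than in DMSO only in culture 3.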

How the data were processed

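The submitters counted reads of poly(A) libraries per gene, and their deposited counts, whole numbers for 25210 genes, were used as they stand. Their processing notes name TopHat2 2.1, Bowtie 1.1.0, HTSeq, DESeq2 and the builds GRCm38 and mm10, with no role given, and the strand setting of the counting is not given in the sources used here. Genes with enough counts (edgeR 4.0.16, filterByExpr over the 4 groups, 15316 genes) were scaled by TMM and fitted in all 12 libraries with dose group and culture as terms (quasi-likelihood test, Benjamini-Hochberg adjustment over all genes, threshold 0.05), in R 4.3.3. The culture block was used because the labels give the same 3 animals in each dose group. Deviations of same-culture libraries correlated with r of 0.636, 0.216 and 0.632, and those of different cultures with r between −0.604 and 0.246. These deviations were from the mean of the 3 libraries of a group, so a positive r within a culture by itself lowers those between cultures. The 1.5 µM library of culture 2 correlated slightly more with the DMSO library of culture 1 (0.246) than with its own (0.216). SE is the log2 fold change divided by the root of F. The block takes out differences between cultures that are the same at every dose. The p-values thus rest on the spread left after dose group and culture were fitted, estimated over all 4 groups. That spread comes from 3 cultures of 1 animal each. Totals of 10129264 to 24485855 counts limit genes of a few CPM.

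The members, gene lists and tests were chosen with earlier results of these data known. Named genes were the defining members of each list, the 3 largest called increases and decreases per list with 1 direction in 3 cultures and a mean of at least 50 counts, the 10 largest of each over all other genes, and the 5 lowest p-values. Some genes under this rule are not reported here. Symbols and exon overlaps came from GENCODE M21, and promoters from RefSeq (GRCm38.p6). The fit was tested on simulated data. Other scalings, filters, DESeq2 1.42.0, thinning and left-out libraries were tried as alternatives, 16 in all.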

Additional observations from a re-analysis of the deposited data

How the results depend on the processing

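Without the replicate block for culture, 4177 genes were called between 1.5 µM and DMSO, 2364 higher and 1813 lower, and 4176 of them were among the 7147 called with it. The same change gave 831 calls for 1.5 against 1 µM and 4544 for 3 against 1.5 µM. Fitting only the 2 groups of 1.5 against 1 µM gave 5502. Leaving out a library or a culture gave between 3231 and 7489 calls for 1.5 µM against DMSO (1632 to 3622 higher, 1599 to 3867 lower), 114 to 4055 for 1.5 against 1 µM and 3069 to 8306 for 3 against 1.5 µM. The other alternatives kept the count for 1.5 µM against DMSO between 6007 (only these groups fitted) and 7287, the latter with library size alone, where 4089 rose and 3198 fell, against 3420 and 3727 with TMM, and the median over all genes was 0.07. RLE size factors gave 3138 higher and 3932 lower. Of 245 named genes tested, 208 were called, 104 of these in each of the 16 alternatives, and 81 were lost without the block. None reversed. The numbers that rose in the mitosis, DNA replication, ribosomal protein and basal identity lists, and that fell in the contractile and fatty acid lists, moved by no more than 1.5 times in any alternative. Of genes reported as not called, Krt18 passed in 4 alternatives, Elf5 and Edar in 3, Kit, Prlr, Ptch1, Cyr61 and Itgb4 in 2, and Krt8 and Ctgf in 1.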
